A study of Mus musculus with 24 samples.

Results

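In a pro-B cell line whose CTCF had been degraded, the CTCF peaks that remained were compared with the peaks of Rad21, a subunit of cohesin, from the same cells. The comparison rests on 6 of the 16 peak lists of the series, 3 of CTCF ChIP-seq and 3 of Rad21 ChIP-seq, restricted to mouse chromosomes. A site is a union of overlapping peaks of one antibody to which each of its 3 lists contributes, which gave 5823 CTCF sites of 21469 merged CTCF peaks and 12559 Rad21 sites of 37561 merged Rad21 peaks. A site was called "both" when it overlapped a site of the other antibody by at least 1 bp, "without" when no list of the other antibody had a peak on it, and "partial" in between.

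The cells are a v-Abl transformed mouse pro-B line with an Eμ-Bcl2 transgene and no RAG2. The CTCF-degron derivative carries CTCF fused to a degron, a tag through which the protein is broken down once the auxin IAA is present. It received 500 µM IAA for 6 h, and then IAA together with STI-571, an inhibitor of the Abl kinase, at 3 µM for 4 days. The parental line, with the same transgene and RAG2 deficiency, received STI-571 in the same way and no IAA, and has 3 lists per antibody. Line and IAA therefore change together between these groups, and their effects cannot be told apart. A Rad21-degron line, with 2 Rad21 lists without IAA and 2 with IAA, served as a further background. Its cells all received STI-571, and those with IAA received IAA, at the same doses and times as above. The study asks how cohesin and CTCF take part in long-range V(D)J recombination. Nothing in the labels says that replicates came from separate cultures, so spreads and p-values cover only these libraries.

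CTCF is a zinc-finger protein that binds an oriented DNA motif, and cohesin is a ring complex of Smc1a, Smc3, Rad21 and a Stag subunit that extrudes chromatin loops. Extruding cohesin is held up where it meets the N-terminal side of bound CTCF, which faces the 3′ side of the motif, so Rad21 peaks usually coincide with CTCF peaks. In pro-B cells, CTCF sites punctuate the immunoglobulin heavy-chain locus, along which cohesin-driven loop extrusion brings variable gene segments to the recombination centre.

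The CTCF core motif was searched on both strands as CCA, a pair of free letters, AG, a second pair of free letters and GGC. The first set of sequences shows the highest-ranking sites of both antibodies outside promoters that had a single core match. The match is in capitals, and each stretch is read along the motif from the build NCBIM37 (mm9). The lines name the nearest protein-coding gene by transcript start, which here lies 5126 to 137759 bp away.
Gm17296, chr8:129021532-129021611, plus strand: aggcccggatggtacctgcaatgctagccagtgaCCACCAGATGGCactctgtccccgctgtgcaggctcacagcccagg
Gm17657, chr17:29651524-29651603, minus strand: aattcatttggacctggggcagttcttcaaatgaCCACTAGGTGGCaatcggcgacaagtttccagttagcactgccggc
Hnrnpa3, chr2:75443908-75443987, plus strand: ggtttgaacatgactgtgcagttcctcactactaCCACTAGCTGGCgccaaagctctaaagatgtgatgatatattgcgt
Slc24a2, chr4:87014123-87014202, plus strand: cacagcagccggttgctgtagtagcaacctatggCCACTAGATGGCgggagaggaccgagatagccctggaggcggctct

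A second set also comes from outside promoters. It shows the highest-ranking Rad21 sites with no CTCF peak in any depleted list, CTCF in each parental list and a single core match. Ctla4 encodes an inhibitory receptor of T cells, Slc2a6 a sugar transporter, Defb36 a defensin and Wipi1 an autophagy protein. These are again the nearest genes and not assigned targets.
Ctla4, chr1:60917639-60917718, minus strand: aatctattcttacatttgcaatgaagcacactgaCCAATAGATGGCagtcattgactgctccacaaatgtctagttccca
Slc2a6, chr2:26899137-26899216, plus strand: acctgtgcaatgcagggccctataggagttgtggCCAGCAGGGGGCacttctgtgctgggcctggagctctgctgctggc
Defb36, chr2:152441418-152441497, plus strand: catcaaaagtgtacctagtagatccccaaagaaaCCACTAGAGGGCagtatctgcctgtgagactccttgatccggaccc
Wipi1, chr11:109446547-109446626, minus strand: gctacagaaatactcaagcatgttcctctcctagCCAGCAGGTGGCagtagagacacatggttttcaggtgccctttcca

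For contrast, 120 bp at the centre of 3 further sites are given on the plus strand. They are an intronic CTCF site without Rad21 (nearest gene Ggh, a gamma-glutamyl hydrolase), a CTCF site without Rad21 at the promoter of Fdps, the farnesyl diphosphate synthase gene, and a Rad21 site without CTCF nearest to Insm1, a zinc-finger transcription factor gene. Capitals in the Fdps stretch mark a CCAAT box read on the minus strand. The Ggh stretch repeats a short unit throughout.
Ggh, chr4:20118989-20119108: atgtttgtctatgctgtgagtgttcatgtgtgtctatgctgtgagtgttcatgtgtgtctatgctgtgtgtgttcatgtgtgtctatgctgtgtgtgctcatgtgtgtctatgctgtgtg
Fdps, chr3:88905886-88906005: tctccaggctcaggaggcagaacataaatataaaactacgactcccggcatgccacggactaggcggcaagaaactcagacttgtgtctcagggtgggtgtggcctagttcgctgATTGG
Insm1, chr2:146051584-146051703: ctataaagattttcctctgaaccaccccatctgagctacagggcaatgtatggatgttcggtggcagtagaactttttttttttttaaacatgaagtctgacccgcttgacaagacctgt

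The 6 lists held 8215 to 35224 mouse peaks, and the depth of each library is unknown because the lists carry no read counts. Replicates 2 and 3 of the Rad21 lists contained a spike-in of HCT116, a human colorectal carcinoma line, and held 1675 and 319 peaks on human contigs, which were set aside. Replicate 1 of Rad21 and the 3 CTCF lists had no such peaks. The third list was the shortest for each antibody. The Rad21-degron lists without IAA held 27499 ± 7657 mouse peaks and those with IAA held 2486 ± 1558 (SD, n = 2 each). These Rad21-degron libraries and parental Rad21 replicates 2 and 3 are labelled with the same spike-in. Their human peaks, 1748 to 14878 per list, were also set aside.

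Rad21 lists were longer and their peaks wider than those of CTCF in the same depleted cells. CTCF replicates 1, 2 and 3 held 15510, 15754 and 8215 peaks, and the Rad21 replicates held 35224, 25949 and 15690. The lowest Rad21 list thus lay between the CTCF lists. On the log2 scale the difference was 0.95 (1.93-fold), with p = 0.2 in an exact two-sided permutation test, against a smallest possible p of 0.1 for 3 lists against 3. Median peak widths were 213, 236 and 181 bp for CTCF and 389, 335 and 237 bp for Rad21. These did not overlap, although the narrowest Rad21 median exceeded the widest CTCF median by little, and the difference of 110 bp gave p = 0.1 in the same exact permutation test. It was 242.7 bp at a q-value of 0.001 or less, 178 bp with peaks within 1000 bp joined, 73.0 bp without promoter peaks and 284.7 bp at equal list length, where the exact permutation p was 0.2. With Rad21 and CTCF replicates 2 and 3 alone, which leaves only spike-in Rad21 lists, the differences were 0.83 (log2) and 77.5 bp.

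The gene position of all peaks did not separate the antibodies. Within 1 kb of a transcript start lay 41.4%, 38.9% and 33.3% of the CTCF peaks of replicates 1 to 3, and 34.3%, 41.3% and 46.6% of the Rad21 peaks. The ranges overlapped, and the difference of 2.81 percentage points (exact permutation p = 0.5) changed sign, to -2.73, once peaks whose centre occurs more than once in the genome were left out. Without Rad21 replicate 3 it was -0.125 points, without CTCF replicate 3 0.525, without CTCF replicate 1 4.59 and without Rad21 replicate 1 6.03. The core motif lay in the central 200 bp of 9.83%, 16.04% and 14.5% of CTCF peaks and of 8.64%, 11.6% and 10.4% of Rad21 peaks, which also overlapped. That difference was -3.24 percentage points with p = 0.3 (exact permutation test), and 0.308 when every list was shortened to the same length. It was -5.04 points without CTCF replicate 1, -1.94 without CTCF replicate 2 and -6.00 without multi-copy centres.

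At the level of sites, most CTCF sites were also Rad21 sites, while most Rad21 sites were not CTCF sites. Of the 5823 CTCF sites, 4229 (72.6%) were sites of both antibodies, 1391 were partial and 203 (3.49%) had no Rad21 peak in any list. Of the 12559 Rad21 sites, 4222 (33.6%) were sites of both antibodies, 6029 were partial and 2308 (18.4%) had no CTCF peak in any list. The numbers for "both" differ because a broad site of one antibody can hold more than 1 site of the other. When every list was shortened to the shortest by the authors' fold enrichment, 2168 CTCF sites (55.4%) and 47.9% of Rad21 sites were shared, 816 CTCF sites lacked Rad21 and 659 Rad21 sites lacked CTCF, so the order of the single-antibody counts reversed at equal list length.

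Single lists also moved these counts. Without CTCF replicate 3, the shortest, there were 10031 CTCF sites, of which 7196 were "both" and 384 without Rad21, and 55.7% of Rad21 sites were shared. Leaving out Rad21 replicate 3 gave 21816 Rad21 sites, 7517 of them without CTCF. The CTCF sites without Rad21 numbered 703 without Rad21 replicate 1, 386 without CTCF replicate 1 and 359 without CTCF replicate 2. The last pair of settings left 3634 and 3559 Rad21 sites without CTCF. Requiring that at least 50% of a site be covered, also by each of its own lists, left 1988 CTCF and 3192 Rad21 sites. Of these CTCF sites 556 (28.0%) were shared, and of these Rad21 sites 13%.

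**Figure D1:**
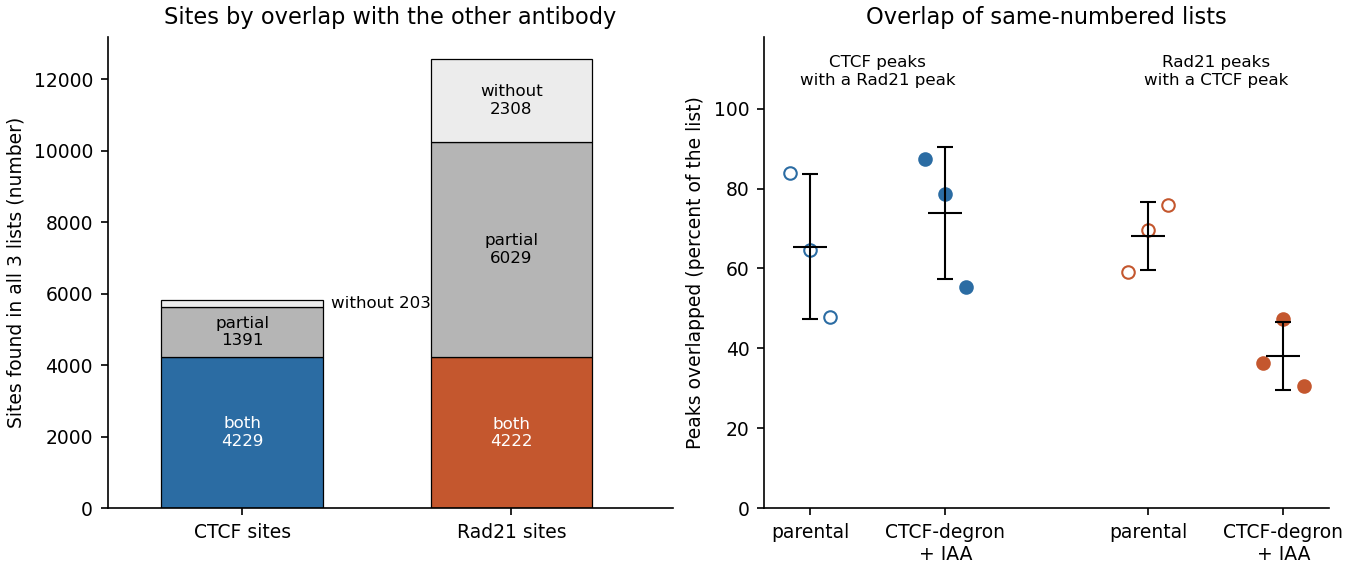
Left, numbers of CTCF and Rad21 sites of CTCF-depleted cells by class (4229, 1391 and 203 CTCF sites; 4222, 6029 and 2308 Rad21 sites). Right, percent of peaks of each list overlapped by the same-numbered list of the other antibody in parental (open) and CTCF-depleted (filled) cells, with mean and SD of 3 lists: the depleted Rad21 lists sit at 30.5% to 47.4%, all below the parental 59.0% to 75.9%, while the CTCF lists overlap.

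How much of a list was overlapped depended on the list it was set against. Rad21 replicate 1 covered 82.9% to 87.4% of the peaks of the 3 CTCF lists, replicate 2 covered 71.3% to 78.7% and replicate 3 covered 54.5% to 55.8%. In the other direction, CTCF replicates 1 and 2 covered 36.3% to 57.1% of the peaks of the Rad21 lists, and CTCF replicate 3 covered 19.0% to 30.5%. For each covered list, the share was lowest with the shortest covering list. It also differed with the covered list, CTCF replicate 1 covering 36.3%, 45.4% and 57.1% of Rad21 replicates 1 to 3.

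Compared with parental cells, a smaller share of Rad21 peaks coincided with CTCF. Between same-numbered lists, 36.3%, 47.4% and 30.5% of depleted Rad21 peaks overlapped CTCF, against 59.0%, 69.6% and 75.9% in parental cells. No depleted list reached the lowest parental one. The difference was -30.1 percentage points (exact two-sided permutation p = 0.1, the smallest possible). It stayed between -37.2 and -17.7 points over 24 recalculations, the smallest being at equal list length. Not all of these are distinct. Leaving out a CTCF list or the same-numbered Rad21 list gives the same value, and the replicate block keeps the main value. Since the share depends on the list set against it, each Rad21 list was also averaged over the 3 CTCF lists of its cells. This gave 31.02%, 38.6% and 48.1% in depleted and 56.4%, 72.3% and 77.9% in parental cells, a difference of -29.6 points, again with no overlap between the groups (exact permutation p = 0.1). The order of the depleted lists differed between these ways, replicate 3 being the lowest at 30.5% by number and the highest at 48.1% on average. The parental CTCF lists held 48857 ± 3064 peaks (SD, n = 3) and the depleted ones 13160 ± 4284, so the number of CTCF peaks moved with this share, and its part in the result was not tested beyond the equal-length setting. The share of CTCF peaks overlapped by Rad21 was 87.3%, 78.7% and 55.4% in depleted cells and 83.9%, 64.7% and 47.8% in parental cells. These overlapped, with a difference of 8.32 points and an exact permutation p of 0.6, and the sign turned at equal list length (-17.2 points), at a q-value of 0.001 or less (-8.46 points), at a fold enrichment of 4 or more (-1.03 points) and without parental replicate 3 of either antibody (-0.524 points). It was 1.55 points without depleted replicate 1 of either antibody, 17.5 without depleted replicate 3 or parental replicate 1 of either, and 6.87 when averaged over the 3 Rad21 lists, where the groups did not overlap (exact permutation p = 0.1).

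Where the antibodies met, the CTCF site usually lay within a broader Rad21 site. The median distance between their centres was 102 bp, with quartiles at 43 and 223 bp. In 73.9% of the 4229 sites the CTCF site lay inside the Rad21 site, and in 89.2% the Rad21 site was the wider. The authors' fold enrichment, ranked within each list as a percentile (100 is the highest), was positively related between the antibodies at these sites, with Spearman coefficients of 0.439 to 0.705 over the 9 pairs of lists and 4118 to 4227 sites. The points share their genomic sequence and mappability, and the coefficients are a description.

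The first 4 named sites were shared promoters, the highest in mean rank over all 6 lists. Suds3 encodes a subunit of the Sin3 corepressor complex, Trappc3 a vesicle-tethering factor and Ap4e1 an adaptor-complex subunit. At 4930485B16Rik (chr10:92533175-92533708, 446 bp from the start), fold enrichment over the CTCF lists was 9.72, 17.6 and 8.87 and over the Rad21 lists 17.4, 14.6 and 8.72. At Suds3 (chr5:117565922-117566509), the CTCF values were 8.27, 18.1 and 9.91 and the Rad21 values 17.7, 14.2 and 8.68. In both cases CTCF replicate 2 had the highest CTCF value and Rad21 replicate 3 the lowest Rad21 value, though fold enrichment of different lists is not on a common scale. Trappc3 (chr4:125939158-125939710) had mean fold enrichments of 10.7 ± 3.91 for CTCF and 15.2 ± 4.75 for Rad21, and Ap4e1 (chr2:126834117-126834598) had 12.6 ± 6.27 and 14.3 ± 5.53 (SD, n = 3 lists each). The first pair held 1 core match each and the second pair none. All 4 had peaks of both antibodies in every parental list and none in the Rad21-degron lists with IAA.

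Outside promoters, the sites with the highest rank in both antibodies were extreme and also present after Rad21 degradation. The site in an intron nearest to Chl1, a neural adhesion gene (chr6:103599035-103599294), had fold enrichments of 6226, 5619 and 5039 in the CTCF lists and 4664, 3627 and 2212 in the Rad21 lists. Sites nearest to Gm5614 and Gm10800 reached means of 3536 ± 291 and 2678 ± 260 for CTCF and 2390 ± 291 and 1978 ± 576 for Rad21 (SD, n = 3). A site of 5853 bp on chr17, nearest to Pgk2, reached 122 ± 42.0 and 29.2 ± 10.7. None of the 4 held a core match, and each was called in both Rad21-degron lists with IAA. Over all 4229 shared CTCF sites, 423 were called in both of those lists and 3089 in neither.

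A further set, taken after these values were seen, was restricted to sites absent from the Rad21-degron lists with IAA. Its leading site, nearest to Gm17296 and shown above by sequence, had CTCF fold enrichments of 11.4, 20.8 and 10.9 and Rad21 fold enrichments of 24.3, 25.5 and 11.5. A site in an exon nearest to Gdf15, a stress-induced cytokine gene (chr8:73153485-73154144), followed with means of 15.1 ± 5.26 and 14.6 ± 5.34. Sites nearest to Ivd, an enzyme of leucine breakdown, and Cd34, a progenitor surface marker, had 11.99 ± 4.00 and 12.04 ± 4.44 for CTCF and 16.3 ± 4.84 and 16.6 ± 6.30 for Rad21 (SD, n = 3). Of these 4, Gm17296 alone carried a core match in its central 200 bp. With every peak left out that overlapped a Rad21-degron IAA peak, 3040 CTCF sites (74.5%) were shared, and 29.4% of the Rad21 sites.

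CTCF sites without Rad21 formed a small class with repeated sequence. Of the 203, 141 (69.5%) had a central 31 bp that occurs more than once in the reference genome, against 9.25% of the shared CTCF sites. On the X chromosome lay 56 of them (27.6%), 46 of which were multi-copy, against 4.45% of the shared sites. Only 8.21% were at promoters, and 1.54% of 195 annotated sites held a core match, against 2.56% of windows 5 kb away. Once peaks with a multi-copy centre were left out, 55 CTCF sites without Rad21 remained, and 83.0% of CTCF sites were shared. Whether read mapping in repeated sequence bears on this class was not tested beyond that count.

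The single-copy members of this class had modest enrichment. At promoters, the site at Plekha1 (chr7:137977929-137978163) had fold enrichments of 5.79, 6.82 and 5.86, and that at Fdps (chr3:88905793-88906098) had 5.86, 7.89 and 5.34. The Plekha1 label is the nearest protein-coding start, 31224 bp from the site, which is itself at the start of another transcript. Zcchc4, an RNA methyltransferase gene, and Gpr174, a lymphocyte receptor gene on X, followed with means of 5.49 ± 0.472 and 5.83 ± 1.48 (SD, n = 3). The leading sites elsewhere, nearest to Ggh, Il13ra2, Gm9797 and Vmn1r2, had means of 6.56 ± 0.628, 6.09 ± 0.335, 6.45 ± 1.35 and 5.81 ± 0.539. None of the 8 held a core match.

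Close to the share of all Rad21 sites at promoters (47.3%), 48.4% of the 2188 annotated Rad21 sites without CTCF lay within 1 kb of a transcript start. A further 24.8% lay in introns, 24.1% between genes and 2.79% in exons. In the reference genome 4.22% is within 1 kb of a start, 35.9% intronic and 57.4% between genes. Shared Rad21 sites had 39.9% at promoters, 16.9% in introns and 41.3% between genes, and partial ones 52.0%, 19.7% and 26.6%. Of the 5663 promoter Rad21 sites, 28.3% were shared and 18.7% had no CTCF. Intergenic Rad21 sites were shared in 44.5% and without CTCF in 14.2% of 3720. The median width of Rad21 sites without CTCF was 683.5 bp, against 916.5 bp for shared Rad21 sites, and 3.29% of those without CTCF had a multi-copy centre.

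**Figure D2:**
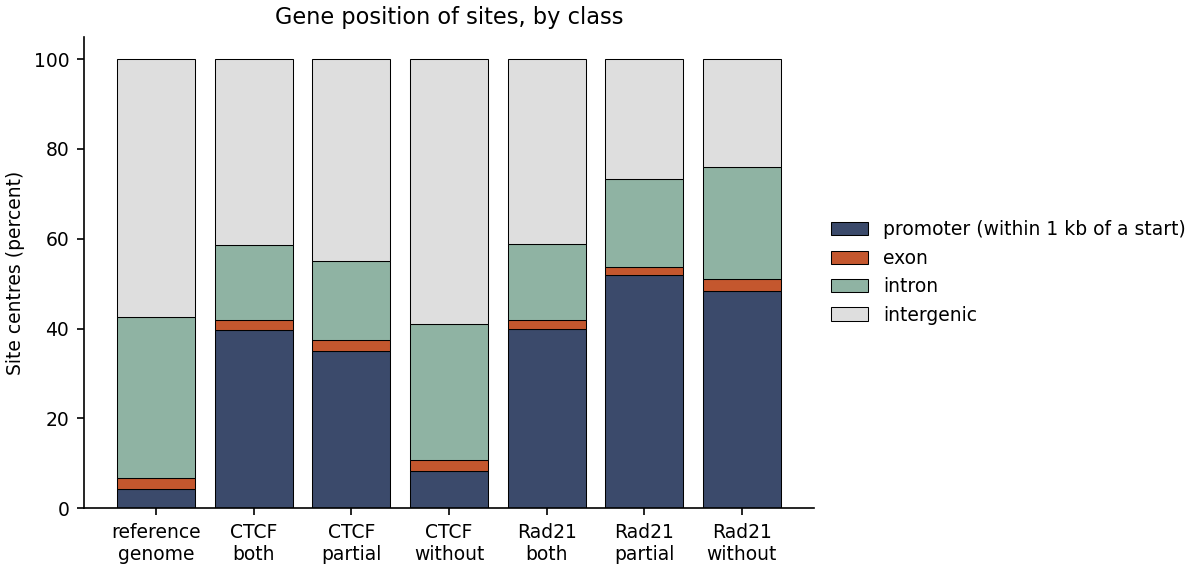
Percent of site centres at promoters (within 1 kb of a transcript start), exons, introns and between genes, for the reference genome and for each class of CTCF and Rad21 sites. Promoters take 39.7% of shared CTCF sites and 48.4% of Rad21 sites without CTCF but 8.21% of CTCF sites without Rad21 and 4.22% of the genome.

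Among named Rad21 sites without CTCF, Rpap3, a chaperone cofactor gene (chr15:97535533-97536721), led the promoters with fold enrichments of 10.7, 7.25 and 5.45. AA467197, Hint1 and Plcl2 followed with 6.80 ± 1.496, 6.39 ± 0.752 and 6.54 ± 0.862 (SD, n = 3). The AA467197 label is again the nearest protein-coding start, 5670 bp away, and the site lies at the start of another transcript. Hint1 encodes a nucleotide hydrolase and Plcl2 a phospholipase-like protein of B-cell receptor signalling. Each had Rad21 in all 3 parental lists, and all but Rpap3, with 1, also had CTCF in all 3 parental lists. Elsewhere, sites nearest to Insm1, B4galnt4, Irf2bp2 and 4930426L09Rik had means of 6.28 ± 0.582, 6.44 ± 1.46, 5.89 ± 0.425 and 5.90 ± 0.549. These had CTCF in 2, 2, 0 and 1 parental lists.

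Rank within a list separated the classes in each library. In the CTCF lists, the median percentile was 79.5, 82.7 and 61.2 at shared sites and 44.7, 40.3 and 51.5 at sites without Rad21. Shared sites were the higher in 3 of 3 lists, by 29 ± 17.1 points (SD), with p = 0.25 in an exact sign-flip permutation test, the smallest that 3 lists allow. In the Rad21 lists the medians were 91.2, 87.8 and 75.9 at shared sites and 64.2, 50.9 and 37.0 at sites without CTCF, a difference of 34.3 ± 6.37 points in 3 of 3 lists (exact sign-flip permutation p = 0.25). These differences stayed positive over the 17 recalculations of each, from 13.4 (without multi-copy centres) to 34.6 and from 17.01 (at 50% coverage) to 42.9 points.

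Peaks at shared sites were also wider in the main setting. A wider peak meets the 1 bp overlap more easily, so class and width are linked by definition and the test cannot separate them. CTCF peaks had median widths of 315, 425 and 200 bp at shared sites and 171, 172 and 173 bp without Rad21, and Rad21 peaks had 862.5, 623 and 372.5 bp against 642.5, 383 and 176 bp. The differences were 141 ± 113 bp and 219 ± 21.8 bp (SD, n = 3), each with p = 0.25 in the exact sign-flip permutation test. Without Rad21 replicate 3 the Rad21 difference was 361.5 bp, and the CTCF difference was 51.7 bp at a q-value of 0.001 or less and 77.0 bp without multi-copy centres. Both turned at equal list length, to -4.50 and -39.0 bp, and the Rad21 difference also turned at a q-value of 0.001 or less (-57.0 bp) and at 50% coverage (-26.0 bp).

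From the lowest to the highest quartile of mean rank, overlap and motif content were each higher than in the quartile before. Promoter content was lowest in the highest quartile. These are descriptions with no test. Shared CTCF sites made up 58.8%, 66.6%, 76.1% and 89.0% of the quartiles of rank, and shared Rad21 sites 16.2%, 20.03%, 29.2% and 69.0%. Rad21 sites without CTCF were 38.4% of the lowest and 1.82% of the highest quartile. The core motif was in 4.44% of CTCF sites of the lowest and 29.4% of the highest quartile, and in 4.34% and 24.5% of Rad21 sites. Promoters made up 46.5% and 22.8% of the lowest and highest quartiles of rank of CTCF sites, and 54.0% and 29.03% of those of Rad21 sites.

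**Figure D3:**
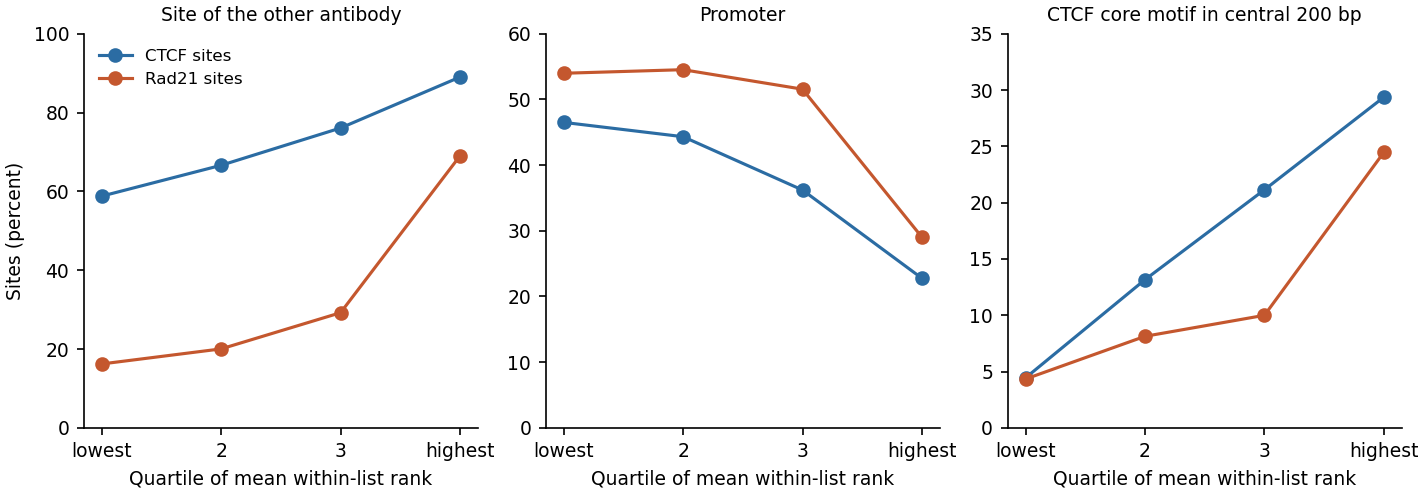
Percent of CTCF (blue) and Rad21 (orange) sites of CTCF-depleted cells that are sites of the other antibody, lie within 1 kb of a transcript start or hold a core motif, by quartile of mean within-list rank of fold enrichment. In the highest quartile 89.0% of CTCF and 69.0% of Rad21 sites were shared.

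Motif content followed the class and the gene position. The core motif was in 22.4% of shared CTCF sites, against 1.78% of windows of the same length 5 kb away. At promoters the share was 7.81%, and elsewhere 32.0%. Rad21 sites without CTCF held it in 4.84% (2.10% in windows 5 kb away), with 1.796% at promoters and 7.70% elsewhere. At their promoters, 51.0% held a GC box (GGGCGG), 10.5% the NRF1 motif and 12.9% an ETS motif (CCGGAAG). The shared Rad21 promoters held these in 50.9%, 5.75% and 11.8%, and the partial ones in 51.9%, 10.3% and 15.2%.

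Outside promoters, 3 of the short motifs searched for blood-cell factors had these shares at Rad21 sites without CTCF. A PU.1 motif (GAGGAAGT) was in 6.64% against 1.77% of windows 5 kb away, a RUNX motif (TGTGGTT) in 10.6% against 5.49%, and the E-box CAGCTG in 21.6% against 8.67%. At shared Rad21 sites outside promoters the same motifs were in 2.61%, 7.01% and 14.1%, and at partial ones in 3.86%, 10.2% and 19.5%. The other E-box searched, CAGGTG, was in 17.4% of sites without CTCF against 15.9% nearby, in 18.6% of shared and in 20.8% of partial sites. None of these shares was tested. A letter match is a description of sequence, and no binding of these factors was measured. E-box matches can overlap a core match, since CAGCTG and CAGGTG can lie inside it.

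At shared sites with a single core match, Rad21 peaks lay on the 3′ side of the motif and CTCF peaks over it. Over 1043 such sites, mean peak centres in the CTCF lists lay at 7.25, -12.2 and 3.89 bp from the motif centre, positive towards the motif's 3′ end. The Rad21 lists had 41.4, 25.7 and 20.9 bp, so the lists did not overlap. The means were -0.365 ± 10.4 bp for CTCF and 29.3 ± 10.7 bp for Rad21 (SD, n = 3), a difference of 29.7 bp with p = 0.1 in the exact two-sided permutation test, the smallest possible. Rad21 centres were on the 3′ side at 63.9% to 65.7% of sites per list, and CTCF centres at 36.7% to 51.6%. With 50% coverage required, only 139 sites were left and the difference was -14.2 bp (exact permutation p = 0.3). It was 51.9 bp with peaks within 1000 bp joined and 44.8 bp with peaks under 500 bp only. With single lists left out the difference was 23.6 to 33.5 bp. Among the sequences above, Rad21 offsets at Gm17657 were 14, 18.5 and 20 bp and CTCF offsets -38.0, -45.5 and -28.0 bp. At Gm17296 they were 270.5, 239.5 and 207.5 bp for Rad21 and -42.5, 2.5 and 20 bp for CTCF.

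**Figure D4:**
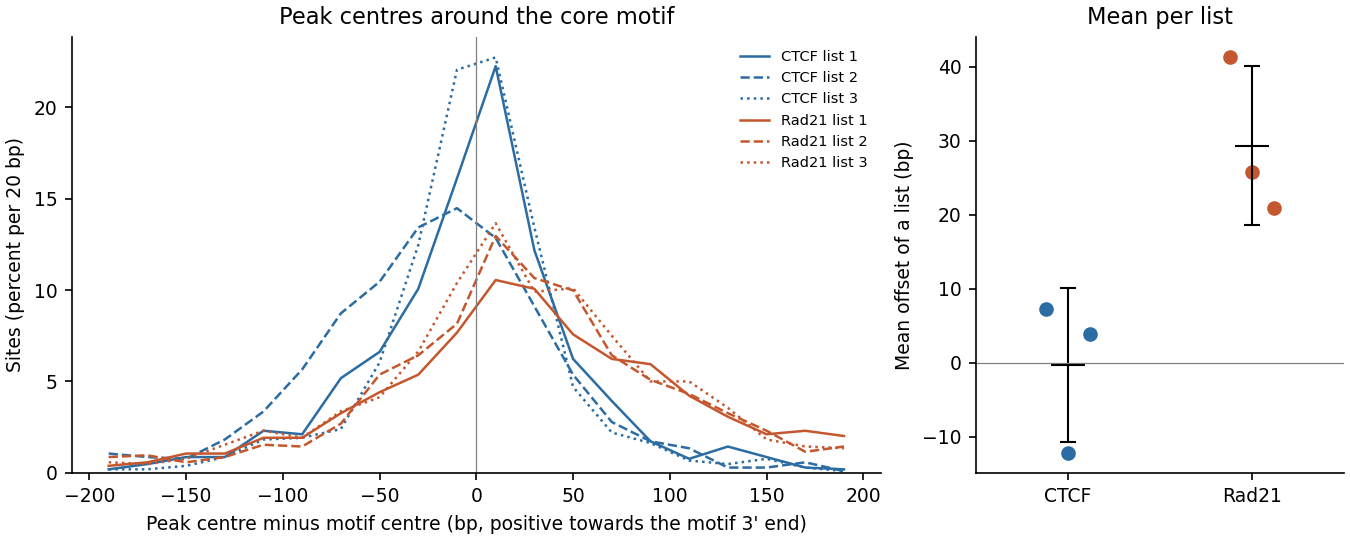
Left, percent of 1043 shared sites per 20 bp of distance from motif centre to peak centre (bp, positive towards the motif's 3′ end) for each of the 3 CTCF (blue) and 3 Rad21 (orange) lists of CTCF-depleted cells; distances over 200 bp are not drawn. Right, mean per list with mean and SD of the 3 lists, at -0.365 ± 10.4 bp for CTCF and 29.3 ± 10.7 bp for Rad21.

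The parental lists had the same order at these sites. Mean offsets there were -32.0 ± 5.62 bp for CTCF and 42.5 ± 15.2 bp for Rad21 (SD, n = 3). At 131 Rad21 sites with a single match that had CTCF in every parental list and in no depleted list, depleted Rad21 peaks lay at 27.6, 12.8 and 34.9 bp, a mean of 25.1 ± 11.3 bp (SD, n = 3). The parental CTCF peaks there lay at 41.2, 4.39 and 11.5 bp. At 858 partial Rad21 sites with CTCF in every parental list, depleted Rad21 peaks lay at 21.1 ± 1.55 bp. Of the 4 printed sites of this kind, Slc2a6 (0, 39 and 68.5 bp) and Defb36 (68, 9 and 78.5 bp) had no Rad21 centre on the 5′ side. Ctla4 was mixed (72.5, -16 and -26 bp), and Wipi1 lay on the 5′ side in each list (-69, -22 and -56.5 bp).

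The letters of the core were compared among parental CTCF sites with a single match, by whether CTCF was still called after depletion. The version with GA as its first free pair and AG as its second made up 34.5% of 10161 matches at sites with CTCF in no depleted list, 18.8% of 1625 at sites with CTCF in 1 or 2 depleted lists, and 10.9% of 1138 at sites with CTCF in every depleted list. At the 1043 shared sites of depleted cells it was 5.37%. The version with C as the first free letter and G as the third went the other way, with 16.8%, 26.3% and 30.5%, and 33.6% at the shared sites. The first version is carried by many copies of a rodent SINE family known to hold CTCF sites, and copies of 1 family are not independent sites.

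Parental cells differed at these classes of site. Shared Rad21 sites had a CTCF peak in 96.7%, 88.3% and 88.8% of cases in parental CTCF lists 1 to 3, and Rad21 sites without CTCF in 58.7%, 41.8% and 41.5%. The difference was 43.9 ± 5.20 percentage points in 3 of 3 lists (exact sign-flip permutation p = 0.25, the smallest possible), and 67.3 points at a q-value of 0.001 or less. Shared Rad21 sites were chosen for CTCF in depleted cells and were wider (median 916.5 against 683.5 bp), which eases overlap. Class and direction are thus linked by definition, and the test cannot separate them. Of the 2308 Rad21 sites without CTCF, 687 had CTCF in every parental list, 883 in 1 or 2, and 738 in none. A core match was in 13.5% of those with CTCF in every parental list, and in 0.710% of those with none, where 37.2% were at promoters.

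CTCF sites without Rad21 mostly had CTCF in parental cells as well. Parental CTCF lists 1 to 3 overlapped 74.9%, 79.8% and 68.0% of them. Parental Rad21 lists overlapped 55.2%, 3.45% and 0.493%, list 1 being the longest with 67810 peaks. At shared CTCF sites these were 99.6%, 91.8% and 81.2%. The difference was 71.2 ± 23.5 points in 3 of 3 lists, with p = 0.25 in the exact sign-flip permutation test. Class and direction are linked here too, since shared CTCF sites were chosen for Rad21 in depleted cells. After Rad21 degradation, the 2 lists with IAA overlapped 25.5% and 11.4% of shared CTCF sites, against 87.4% and 75.2% for the 2 lists of that line without IAA. Among Rad21 sites without CTCF, the lists with IAA overlapped 5.46% and 0.433%.

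**Figure D5:**
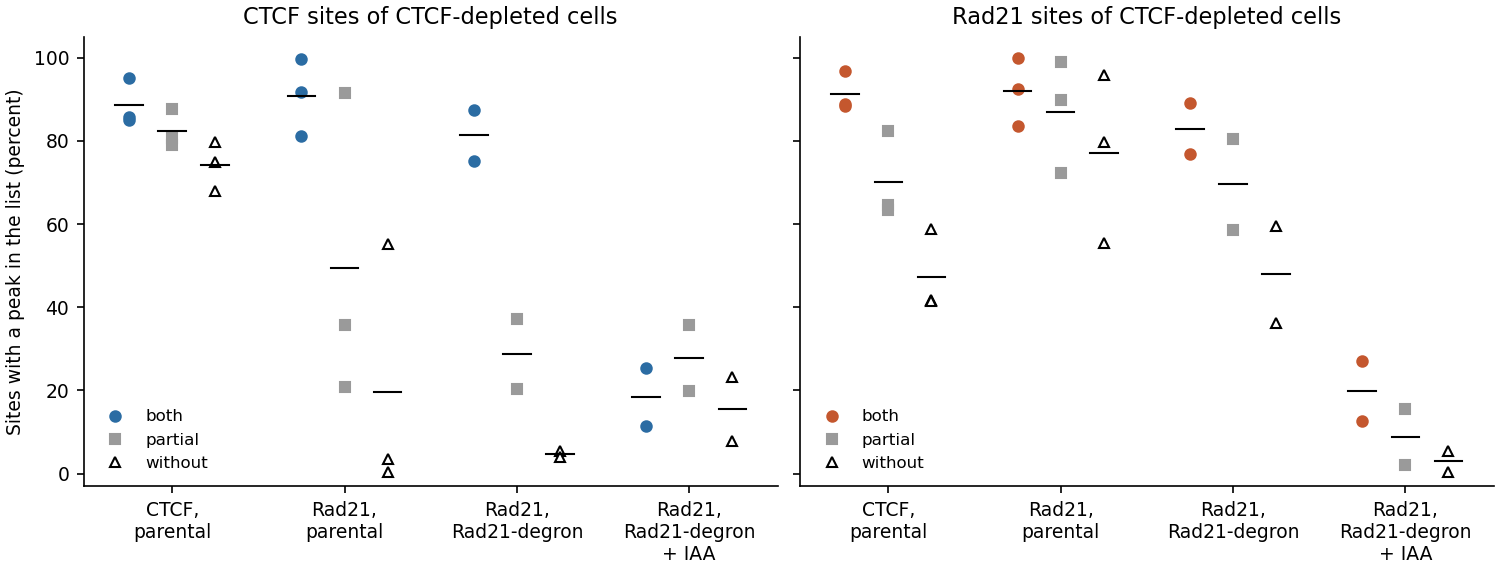
Percent of CTCF sites (left) and Rad21 sites (right) of CTCF-depleted cells with a peak in each parental or Rad21-degron list, by class (circle both, square partial, triangle without), with a line at each mean. Rad21 sites without CTCF had parental CTCF in 41.5% to 58.7% and shared Rad21 sites in 88.3% to 96.7%.

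Genes were read from lists chosen with earlier results known. They were counted when a site lay within 1 kb of a transcript start, or within 10 kb of the gene body, beside all 21508 protein-coding genes outside chromosome 12. A shared site was counted by the position of its CTCF site. Over all of these, 27.6% had a Rad21 site at a start, 10% a CTCF site, 7.83% a shared site, 5.24% a Rad21 site without CTCF and 0.0465% a CTCF site without Rad21. For the gene body the shares were 41.7%, 20.2%, 16.7%, 10.7% and 0.349%.

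Genes of the pre-B receptor and the B-cell surface had shared sites close by. Of 14 listed, 12 had a shared site within 10 kb of the body, beside 16.7% of all protein-coding genes. Kit and Cd22 did not. The 12 include Cd79a and Cd79b, the signalling chains of the receptor, Vpreb1, Vpreb2 and Igll1, its surrogate light chain, and Blnk, an adaptor of its signalling. Of the surrogate light-chain genes, Igll1 and Vpreb1 lie near each other and can share a site, while Vpreb2 lies too far from them for that. At a start, Il7r, Cd93 and Vpreb1 had a shared site, while genes with a Rad21 site without CTCF included Cd72 and Cd79b. At Il7r no Rad21 site was itself counted at the start. Over all protein-coding genes, 7.83% had a shared site at a start and 5.24% a Rad21 site without CTCF.

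Among B-lineage transcription factors, Rad21 sites without CTCF lay around many gene bodies. Of 16 measured, 9 had such a site within 10 kb of the body, beside 10.7% of all protein-coding genes. Among them were Pax5, which fixes B-cell identity, Ebf1, Ikzf1, Irf4 and Myb. Long genes such as Ebf1 and Pax5 have more room for a site, and the comparison was not matched for gene length. At a start, 5 (Bach2, Tcf3, Ebf1, Sox4 and Runx1) had a shared site, and Lef1, Ikzf1 and Ebf1 had a Rad21 site without CTCF. Rad21 of any class was at the start of 11. Over all protein-coding genes the shares at a start were 7.83% for shared sites, 5.24% for Rad21 without CTCF and 27.6% for any Rad21.

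Among 14 genes of V(D)J recombination and end joining, 10 had Rad21 at a start and 4 a shared site, namely Dclre1c, which encodes the hairpin-opening nuclease Artemis, H2afx, Xrcc6 and Prkdc. Rag1 had Rad21 at its start, and the Rag2 locus, although the cells lack RAG2, had a Rad21 site without CTCF. Of 15 genes of the cohesin and CTCF machinery, 9 had Rad21 at a start, including Ctcf, Rad21, Smc3 and Nipbl, and 2 had CTCF there, Pds5b and Stag1. Of 18 cell-cycle and survival genes, 13 had Rad21 at a start, and Bcl2l11, Bcl2l1 and Pim1 had a shared site. Pim1 is not among the 13, since its shared site was counted by the CTCF position. Over all protein-coding genes the shares at a start were 27.6% for Rad21, 10% for CTCF and 7.83% for shared sites.

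Ribosomal protein genes, highly transcribed in growing cells, had Rad21 at a start in 30 of 34 and CTCF in 11. Over all protein-coding genes these shares were 27.6% and 10%. Of 38 Hox genes, which specify body position and are largely silent in B cells, 1 (Hoxa7) had Rad21 at a start and none had CTCF there. Within 10 kb of the body, 19 of the 38 had Rad21, beside 41.7% of all protein-coding genes. Hox genes lie in clusters, so neighbours can share a site. Of 14 general transcription and chromatin genes measured, 5 had Rad21 at a start, beside 27.6% of all protein-coding genes. The 5 include Polr2a, Tbp and Ep300. Of 15 markers of other blood or stromal cells, 0 had a Rad21 site of all 3 lists at a start and Pecam1 had a CTCF site there, beside 27.6% and 10% of all genes. Spi1, Yy1 and Znf143 were not found among the annotated genes used and are not counted.

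In the window from 110 to 120 Mb on chromosome 12 of the authors' hybrid sequence, which holds the heavy-chain locus, most CTCF sites were shared. It held 132 CTCF sites, of which 117 (88.6%) were shared and 3 lacked Rad21, and 183 Rad21 sites, of which 96 (52.5%) were shared and 19 lacked CTCF. Over the genome these shares were 72.6% and 33.6%, and the differences were not tested. No gene position or sequence is given here, since peak ends on this chromosome run past the reference used.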

How the data were processed

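ChIP-seq peak lists of CTCF and Rad21 were used, 1 per library. Per the submitters' processing notes, Bowtie2 2.2.8 and SAMtools 1.8 were used with the builds mm9 and hg19. The peak caller is not given in the sources used here. In the deposited lists column 5 is a score, column 7 a ratio read as fold enrichment, and columns 8 (p-value) and 9 (q-value) are given on the −log10 scale. These are the authors' own values per peak, used only to rank or filter within a list.

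The members and gene lists were chosen with earlier results of these data known. Mouse peaks were merged per antibody, and overlaps needed 1 bp. Positions and sequences came from NCBIM37 with GENCODE vM1, without chromosome 12. Background windows lay 5 kb to the right. Exact two-sided permutation or sign-flip tests took the list as unit (SciPy 1.17.1, NumPy 2.4.6), after the code was tested on simulated data. Named sites were, per class, the 4 promoter and 4 other sites of highest mean rank with a single-copy central 31 bp, off chromosomes 12 and 18. Printed sequences with a core match needed a single one and lay outside promoters. Ggh and Insm1 led their class outside promoters, and Fdps was second at promoters. All were picked after the values were seen. Same-numbered CTCF and Rad21 lists had correlated deviations of 0.0480, 0.199 and 0.123, each list correlating best with its own number. These values do not settle whether the numbers pair the lists. The tests between groups took the lists as unpaired, with a replicate block as an alternative. Overlap shares set same-numbered lists against each other, with the mean over all 3 lists as an alternative. The 8 input libraries were not used here. No per-sample column was left unmapped.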

Additional observations from a re-analysis of the deposited data

Results flagged for a closer look

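Peaks on human contigs stand outside the comparisons: Rad21 replicate 2 of the CTCF-depleted cells had 1675 and replicate 3 had 319. Both libraries are labelled as holding an HCT116 spike-in, and the Rad21 replicate without that label and the 3 CTCF lists had none. No group had the 4 samples that a check for a single deviating library needs.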

How the results depend on the processing

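Of 359 recalculations, 240 concerned tested differences, of which 226 kept their direction and 14 reversed, and 119 concerned counts and shares of sites, of which 61 moved. Some could not differ. For overlap differences, leaving out a CTCF list or the same-numbered Rad21 list gives the same value, and a replicate block cannot change a direction. The p-values say nothing of stability, since 3 lists against 3 cannot go below 0.1 and sign flips of 3 lists cannot go below 0.25. Depth is unknown. The stated check did not settle whether replicate numbers pair the lists (correlations of 0.0480, 0.199 and 0.123, each list correlating best with its own number). With a replicate block, differences were unchanged in size by construction, at 0.95 for log2 peak number, 110 bp for width, 2.81 and -3.24 points for promoter and motif content, 29.7 bp for the offset, and 8.32 and -30.1 points for the overlap of CTCF and of Rad21 peaks, and none reached its threshold.

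The following values moved or reversed, and the cause was not tested except where fewer peaks entered. Here and below, shared counts are of CTCF sites, and paired shares are of CTCF and then of Rad21 sites. At a q-value of 0.001 or less there were 2337 CTCF and 3158 Rad21 sites, 1314 shared (56.2% and 41.5%) and 568 Rad21 sites without CTCF, with differences of -57.0 bp for Rad21 width between classes and -8.46 points for CTCF peaks overlapped. A fold enrichment of 4 or more gave 353 CTCF sites without Rad21, shares of 70.3% and 35.4%, and -1.03 points. Joining peaks within 1000 bp gave 78.2% of CTCF sites shared and a promoter difference of -0.162 points. Coverage of at least 50% gave 1988 and 3192 sites, 556 shared (28.0% and 13%). The offset was -14.2 bp over 139 sites, and the Rad21 width difference -26.0 bp. With every list at the length of the shortest there were 4486 Rad21 sites, 2168 shared (55.4% and 47.9%), 816 and 659 single-antibody sites, width differences of -4.50 and -39.0 bp, -17.2 points for CTCF peaks overlapped and 0.308 points for motif content. Sites of at least 2 of 3 lists numbered 11057 and 22275, with 9383 shared (84.9% and 41.5%) and 677 and 7761 without the other antibody. Replicates 2 and 3 alone gave 1006 and 3820 single-antibody sites and shares of 67.1% and 34.6%. Without multi-copy centres there were 55 CTCF sites without Rad21, shares of 83.0% and 30.6%, and a promoter difference of -2.73 points.

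Chosen after seeing the data were the averaging of each list over the lists of the other antibody (6.87 and -29.6 points for the overlap of CTCF and of Rad21 peaks), and the removal of peaks that overlap a Rad21-degron IAA peak (74.5% and 29.4% shared) and of promoter peaks, which left 3683 CTCF and 6679 Rad21 sites, 2561 shared (69.5% and 38.3%) and 1208 Rad21 sites without CTCF.

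Leaving out single lists gave 5823 to 10031 CTCF sites, 12559 to 21816 Rad21 sites, 4138 to 7196 shared, 211 to 703 and 2358 to 7517 single-antibody sites, and shares of 68.9% to 85.3% and 23.1% to 55.7%. The promoter difference ranged from -0.125 (without depleted Rad21 replicate 3) to 6.03 points, and the difference in CTCF peaks overlapped from -0.524 (without parental replicate 3) to 17.5 points.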

Other observations

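Partial sites, which had peaks of the other antibody without reaching a site of all 3 lists, lay between shared and single-antibody sites for CTCF in the measures given here, and for Rad21 not in all of them. Of the 1391 partial CTCF sites, 48.6% had a multi-copy centre (9.25% of shared sites and 69.5% of those without Rad21) and 14.2% were on the X chromosome (4.45% and 27.6%). Parental Rad21 lists 1 to 3 overlapped 91.5%, 35.7% and 20.8% of them. A core match was in 3.18% of these CTCF sites, and in 10.9% of the 6029 partial Rad21 sites. Partial Rad21 sites had a multi-copy centre in 3.12%, against 11.2% of shared sites and 3.29% of those without CTCF, and lay at promoters in 52.0%, against 39.9% and 48.4%.

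A short EBF motif (of a factor that starts the B-cell programme) was in 2.49% of partial and 1.95% of CTCF-free Rad21 sites outside promoters, against 0.469% and 0.442% of windows 5 kb away. At shared Rad21 sites outside promoters it was in 1.29%, against 0.746% nearby. These shares were not tested and no binding of the factor was measured.

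Codes inside the peak names were B1, A7 and A7 for CTCF replicates 1 to 3 and A7, A11 and A11 for Rad21. Their meaning is not given in the sources used here, and same-numbered lists never had the same code.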
